A study of Homo sapiens with 6 samples.

Results

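The miR-17-92 cluster is a group of miRNA hairpins cut from the primary transcript of MIR17HG, and 4 of its mature miRNAs were listed among the miRNAs measured in exosomes of HaCaT keratinocytes. They were hsa-miR-17-3p, hsa-miR-20a-3p, hsa-miR-19b-3p and hsa-miR-19b-1-5p, called below without the species prefix and taken by name from the deposited tables of known miRNAs. They are 4 of 161 known rows, and of 276 rows when predicted miRNAs are included. Small RNA was sequenced from exosomes, small vesicles that cells release, which were collected by ultracentrifugation of culture medium. HaCaT is an established human keratinocyte line, and the labels give its genotype as "With type". Exosomes of cells given 0.4 mM hydrogen peroxide (H2O2), an oxidant, were compared with exosomes of untreated cells, with 3 biological replicates in each group. The labels give times of 24, 25 and 26 h for H2O2 replicates 1, 2 and 3, and the series text gives 24 h, so time and replicate number cannot be told apart within that group. The authors selected every row of the tables for a difference between these groups, so a difference in the listed direction is a property of the listing and not a result.

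Each hairpin can give a mature miRNA from its 5′ arm and from its 3′ arm, and usually the major arm is loaded into Argonaute and represses mRNAs through its seed, bases 2 to 8, while most of the minor arm is degraded. The cluster is a transcriptional target of MYC and E2F factors, promotes cell growth and survival, and has been called oncomiR-1 for its tumour-promoting activity in lymphoma. In skin, its members have been studied in keratinocyte proliferation and in wound repair. miR-19b-3p is a major arm, and the other 3 listed rows are minor arms. Among those, miR-17-3p has been described in prostate cancer cells as a repressor of mitochondrial antioxidant enzymes, including manganese superoxide dismutase.

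The mature sequences below, from RefSeq on GRCh38.p14, show which listed miRNAs could share targets or reads; capitals mark the seed.
miR-17-3p: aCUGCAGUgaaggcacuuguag
miR-20a-3p: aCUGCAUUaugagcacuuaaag
miR-19b-3p: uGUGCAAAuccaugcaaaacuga
miR-19b-1-5p: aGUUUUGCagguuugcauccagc
miR-19a-3p: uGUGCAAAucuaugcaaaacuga
miR-19b-2-5p: aGUUUUGCagguuugcauuuca

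All 4 members had different seeds. miR-17-3p and miR-20a-3p differed at 7 of 22 positions, of which G7U, counted from the 5′ end with the miR-17-3p base first, lies in the seed. Of the mature miRNAs in the RefSeq table, 0 shared the seed of miR-17-3p and 0 that of miR-20a-3p. miR-19b-3p shared its seed with miR-19a-3p, from which it differed by the single change C11U (miR-19b-3p base first). miR-19b-1-5p shared its seed with miR-19a-5p and miR-19b-2-5p, and its first 18 bases with miR-19b-2-5p, so a read ending within those 18 bases could not be assigned to 1 of the pair by sequence. None of these seed partners was among the listed known rows (0), and they are not analysed here.

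The hairpins show where each listed arm lies; capitals mark the listed arms.
MIR17: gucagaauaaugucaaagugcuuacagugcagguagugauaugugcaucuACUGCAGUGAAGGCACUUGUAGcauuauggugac
MIR20A: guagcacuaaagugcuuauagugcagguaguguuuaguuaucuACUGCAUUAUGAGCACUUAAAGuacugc
MIR19B1: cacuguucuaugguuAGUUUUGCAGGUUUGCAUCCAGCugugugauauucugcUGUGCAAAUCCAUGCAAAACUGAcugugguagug
MIR19B2: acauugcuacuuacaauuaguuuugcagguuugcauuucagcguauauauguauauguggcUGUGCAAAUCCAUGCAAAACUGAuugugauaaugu

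The hairpins lie on the plus strand of chromosome 13, MIR17 at chr13:91350605-91350688, MIR20A at chr13:91351065-91351135 and MIR19B1 at chr13:91351192-91351278. The 6 hairpins of the cluster span 787 bases. In GENCODE release 29, each of these 3 hairpins is covered by 3 transcripts of MIR17HG, in an exon of 2 and in an intron of 1. The mature miR-19b-3p is also cut from MIR19B2, on the minus strand of the X chromosome at chrX:134169671-134169766 in the paralogous miR-106a-363 cluster. Its reads could therefore not be placed at 1 locus, whereas the annotated miR-19b-1-5p comes from MIR19B1 alone. Of the 15 hairpins of the cluster and its paralogs (miR-106a-363 and miR-106b-25), the listed rows were these 4, and the other arms, including the major arms of mir-17 and mir-20a, are not analysed here.

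miR-19b-3p, the major arm, had 4698, 2588 and 5729 reads in H2O2 replicates 1 to 3, against 3290, 1978 and 1516 reads in untreated replicates 1 to 3. Per 1000000 reads of the library total (CPM), the levels were 1526, 1056 and 1387 CPM in H2O2 exosomes and 1040, 748 and 280 CPM in untreated exosomes. The groups did not overlap, but they came close, since H2O2 replicate 2 (95% exact Poisson interval 1016 to 1098 CPM) and untreated replicate 1 (1005 to 1076 CPM) lay within each other's counting error. Untreated replicate 3 was far below the other libraries. The mean was 1323 ± 241 CPM in H2O2 exosomes and 689 ± 383 CPM in untreated exosomes (SD, n = 3 each). The log2 fold change was 0.94 ± 0.49 (SE; 95% interval -0.17 to 2.05), and it did not pass edgeR's quasi-likelihood test (Benjamini-Hochberg adjusted p = 0.0921). Without untreated replicate 3 it was 0.57 ± 0.38.

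miR-17-3p had 56, 104 and 55 reads in H2O2 replicates 1 to 3, against 40, 28 and 28 reads in untreated replicates 1 to 3. Its levels were 18.2, 42.5 and 13.3 CPM in H2O2 exosomes and 12.6, 10.6 and 5.18 CPM in untreated exosomes. The high mean of the H2O2 group rested on replicate 2, and the lowest H2O2 library was only 1.05 times the highest untreated library. The mean was 24.7 ± 15.6 CPM in H2O2 exosomes and 9.47 ± 3.86 CPM in untreated exosomes (SD, n = 3 each). The log2 fold change was 1.38 ± 0.60 (SE; 95% interval 0.04 to 2.73), with an unadjusted edgeR p of 0.0451 and an adjusted p of 0.0528, so it did not pass. Without H2O2 replicate 2 the log2 fold change was 0.74 ± 0.54 (edgeR adjusted p = 0.214).

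miR-20a-3p had 34, 32 and 43 reads in H2O2 replicates 1 to 3, against 20, 19 and 19 reads in untreated replicates 1 to 3. Its levels were 11.0, 13.1 and 10.4 CPM in H2O2 exosomes and 6.32, 7.19 and 3.51 CPM in untreated exosomes. This member had the widest gap between the groups, its lowest H2O2 library being 1.45 times its highest untreated library, and its coefficient of variation within the H2O2 group was 12.0%. The 95% exact Poisson intervals of those libraries still overlapped, at 7.53 to 14 CPM for H2O2 replicate 3 and 4.33 to 11.2 CPM for untreated replicate 2. The mean was 11.5 ± 1.39 CPM in H2O2 exosomes and 5.67 ± 1.92 CPM in untreated exosomes (SD, n = 3 each). The log2 fold change was 1.03 ± 0.49 (SE; 95% interval -0.07 to 2.13; edgeR adjusted p = 0.0721) and did not pass. Without untreated replicate 3 it was 0.76 ± 0.47.

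miR-19b-1-5p, the minor arm of the MIR19B1 hairpin, had 14, 19 and 11 reads in H2O2 replicates 1 to 3, against 8, 4 and 12 reads in untreated replicates 1 to 3. Its levels were 4.55, 7.76 and 2.66 CPM in H2O2 exosomes and 2.53, 1.51 and 2.22 CPM in untreated exosomes. H2O2 replicate 3 (95% exact Poisson interval 1.33 to 4.76 CPM) and untreated replicate 1 (1.09 to 4.98 CPM) could not be told apart at this depth. The mean was 4.99 ± 2.58 CPM in H2O2 exosomes and 2.09 ± 0.521 CPM in untreated exosomes (SD, n = 3 each). The log2 fold change was 1.20 ± 0.58 (SE; 95% interval -0.11 to 2.51; edgeR adjusted p = 0.0758) and did not pass. Without H2O2 replicate 2 it was 0.75 ± 0.55.

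**Figure D1:**
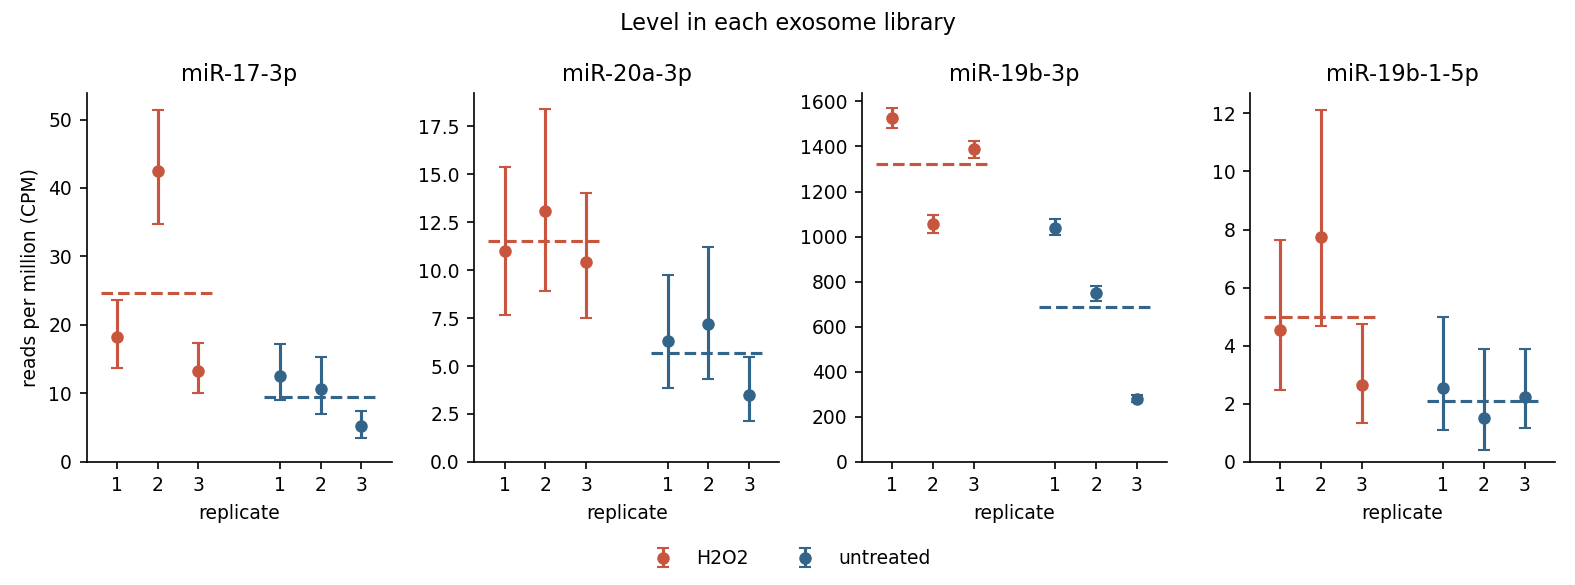
Level of each cluster member in CPM (each panel on its own axis from 0) in the 3 H2O2 and the 3 untreated exosome libraries. Points are libraries, bars the 95% exact Poisson interval of the count, and dashed lines the group means. H2O2 replicate 2 is the highest H2O2 library for miR-17-3p (42.5 CPM), miR-20a-3p (13.1 CPM) and miR-19b-1-5p (7.76 CPM), and the lowest for miR-19b-3p (1056 CPM).

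Of the 4 members, 0 passed the adjusted edgeR test and 1, miR-17-3p, had an unadjusted p under 0.05. With DESeq2, 1 passed (miR-17-3p), where 40 of the 126 known rows with an adjusted p were called higher, which is 31.7%. With limma on log2(CPM + 1), 1 passed (miR-20a-3p), where 43 of 127 known rows were called higher, which is 33.9%. In the edgeR fit, 39 of the 127 known rows were called higher, which is 30.7%, and 43 were higher with an unadjusted p under 0.05, which is 33.9%. The 127 include rows listed as lower. All 39 were among the 61 known tested rows with a positive value, so over rows of the members' direction the share called was larger. Of all 186 known and predicted rows tested, 80.1% passed in 1 direction or the other. The selection of rows raises these shares, so passing or not passing here is relative to other selected rows. The median log2 fold change was 1.12 over the 4 members, against 1.44 over the 61 known tested rows with a positive value and -1.23 over all 127. By size of log2 fold change among those 61 rows, miR-17-3p was at rank 38, miR-19b-1-5p at 46, miR-20a-3p at 56 and miR-19b-3p at 59.

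**Figure D2:**
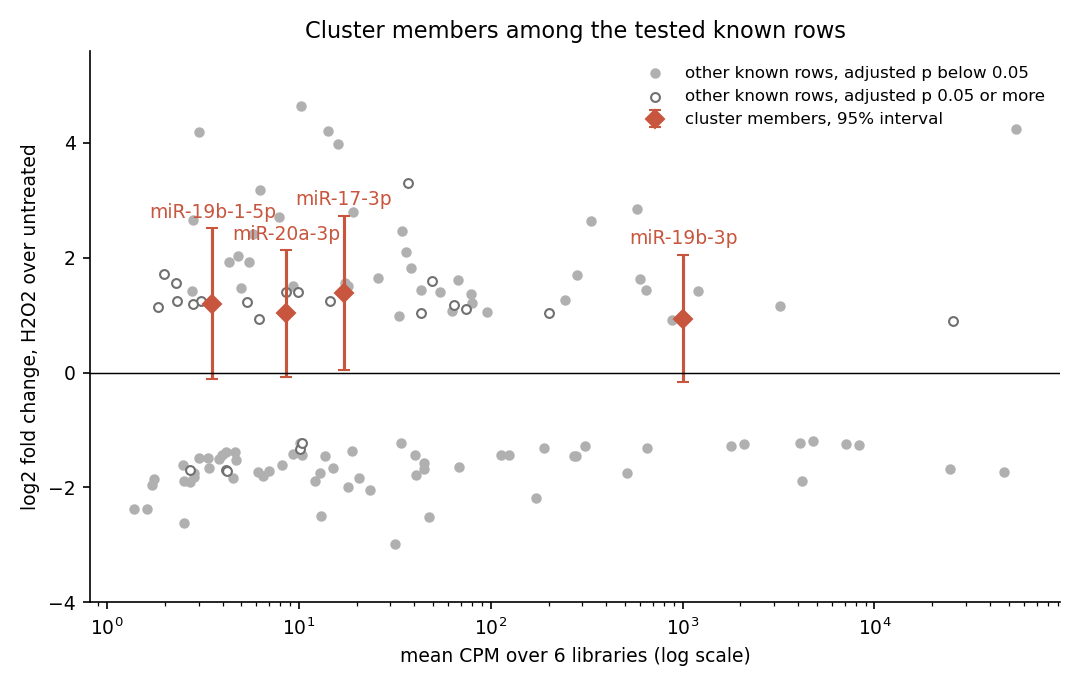
Log2 fold change (H2O2 over untreated) against mean CPM over the 6 libraries (log scale) for the 127 known rows tested. Diamonds are the 4 cluster members with 95% intervals, and circles are the other rows, filled where the edgeR adjusted p was below 0.05. The members lie between 0.94 and 1.38, and 3 of the 4 intervals reach below 0.

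In every library all 4 members were detected, and the groups did not overlap for any of the 4. Over the 161 known rows, 37.3% had every H2O2 library above every untreated library, as did 75.9% of the 79 rows listed as higher, and nothing is read from the members' own count. In the authors' deposited table the log2 fold changes of the members ran from 1.51 (miR-17-3p) through 1.33 (miR-19b-1-5p) and 1.21 (miR-20a-3p) to 1.12 (miR-19b-3p). The unadjusted p-values in the authors' deposited table ran from 0.00558 (miR-17-3p) through 0.0153 (miR-20a-3p) and 0.0256 (miR-19b-3p) to 0.0263 (miR-19b-1-5p). Among known rows listed as higher in the authors' deposited table, the smallest log2 fold change was 1.05 and the highest p was 0.0456. The order of the 4 members by fold change was the same in the edgeR fit as in the authors' deposited table. Both come from the same libraries, so the shared order is not independent support.

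The members differed widely in level. Per base of mature sequence, miR-19b-3p averaged 57.5 CPM in H2O2 exosomes and 30.0 CPM in untreated exosomes. The minor arms were far lower, miR-17-3p with 1.12 CPM per base in H2O2 and 0.430 in untreated exosomes, miR-20a-3p with 0.523 in H2O2 and 0.258 in untreated exosomes, and miR-19b-1-5p with 0.217 in H2O2 and 0.0907 in untreated exosomes. miR-17-3p and miR-20a-3p, neighbours in this order, overlapped over the untreated libraries, although miR-17-3p was the higher in 6 of 6 libraries. The other neighbours did not overlap in either group. By mean CPM, miR-19b-3p was at rank 14 of the 161 known rows, miR-17-3p at 64, miR-20a-3p at 81 and miR-19b-1-5p at 105.

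The spread between libraries was set against counting error. For miR-19b-3p the coefficient of variation was 18.2% over H2O2 libraries and 55.6% over untreated libraries, against 1.52% (H2O2) and 2.10% (untreated) from counting alone. For miR-20a-3p it was 12.0% in H2O2 libraries, below the 16.6% that counting alone gives, and 33.8% in untreated libraries, against 22.7%. For miR-19b-1-5p it was 51.6% in H2O2 and 25.0% in untreated libraries, against 26.1% (H2O2) and 35.4% (untreated) from counting. For miR-17-3p it was 63.3% in H2O2 and 40.7% in untreated libraries, against 11.8% (H2O2) and 17.7% (untreated).

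Added together, the 3 minor arms had 104, 155 and 109 reads in H2O2 replicates 1 to 3 (33.8, 63.3 and 26.4 CPM), against 68, 51 and 59 reads in untreated replicates 1 to 3 (21.5, 19.3 and 10.9 CPM). Every H2O2 library had more minor-arm reads than every untreated library, and untreated replicate 3 had the largest library total. Of single known rows, 37.3% separated the groups in this direction by CPM, as did 75.9% of those listed as higher. All 3 minor arms were listed as higher, so nothing is read from the separation of their sum.

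Ratios of counts from the same library do not depend on the library total. Both arms of MIR19B1 are 23 bases long, and the ratio of miR-19b-3p to miR-19b-1-5p reads was 336, 136 and 521 in H2O2 replicates 1 to 3, against 411, 494 and 126 in untreated replicates 1 to 3. The groups overlapped, and the lowest ratio of each group stood well below the other values of its group. The mean log2 ratio was 8.17 ± 0.99 in H2O2 and 8.20 ± 1.07 in untreated exosomes (SD, n = 3 each), a difference of -0.04 (two-sided exact permutation p = 1; the smallest p that 3 against 3 allows is 0.1). Part of the miR-19b-3p reads may come from MIR19B2, so this is not a ratio of the arms of 1 hairpin alone.

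The ratio of miR-20a-3p to miR-17-3p reads, both 22 bases long, was 0.607, 0.308 and 0.782 in H2O2 replicates 1 to 3, against 0.500, 0.679 and 0.679 in untreated replicates 1 to 3. H2O2 replicate 2 was the lowest of the 6 libraries, and the other 5 lay between 0.500 and 0.782. The mean log2 ratio was -0.93 ± 0.70 in H2O2 and -0.71 ± 0.25 in untreated exosomes (SD, n = 3 each), a difference of -0.22 (two-sided exact permutation p = 0.8).

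The ratio of miR-19b-3p to the 3 minor arms together was 45.2, 16.7 and 52.6 in H2O2 replicates 1 to 3, against 48.4, 38.8 and 25.7 in untreated replicates 1 to 3. The mean log2 ratio was 5.09 ± 0.90 in H2O2 and 5.19 ± 0.46 in untreated exosomes (SD, n = 3 each), a difference of -0.09 (two-sided exact permutation p = 0.9). With 3 libraries a group, none of these 3 ratios could pass 0.05, and leaving out 1 library moved each difference to either side of 0, so they do not show that the arms kept 1 proportion.

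**Figure D3:**
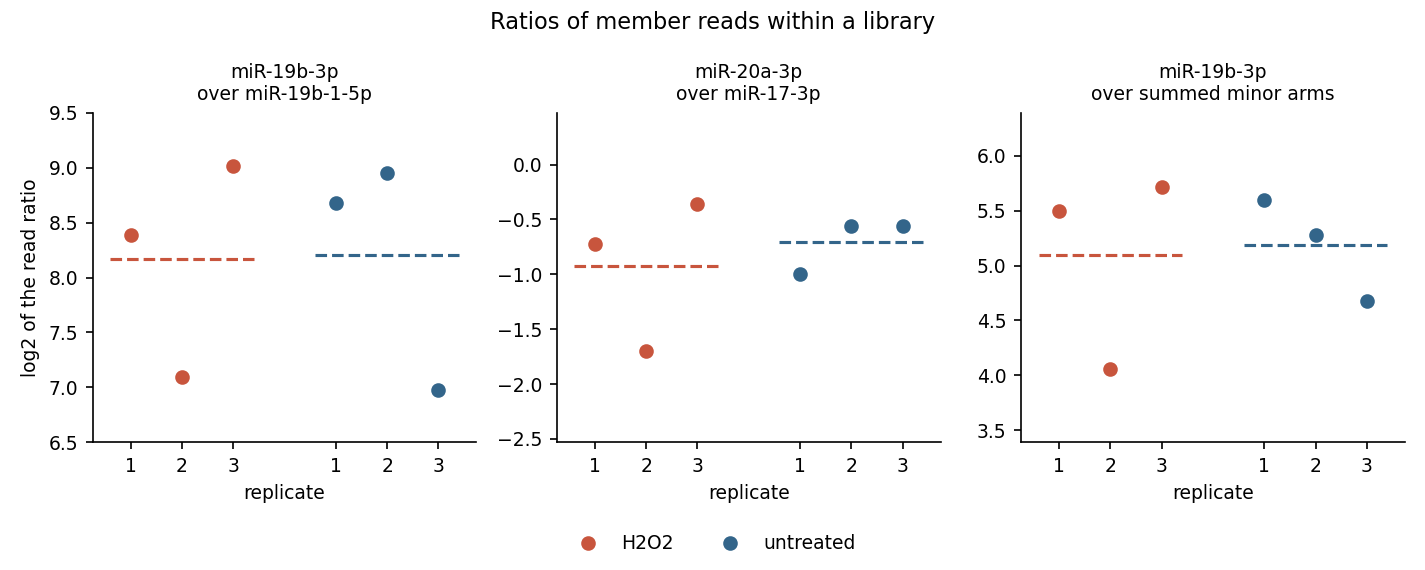
Log2 of the ratio of read counts of 2 members, or of miR-19b-3p to the 3 minor arms together, in each H2O2 and untreated library. Points are libraries and dashed lines group means, and every panel spans 3 log2 units on its own axis. The groups overlap in all 3 panels, and H2O2 replicate 2 is the lowest H2O2 library in each.

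Library totals were 2449856 to 4131478 reads in H2O2 and 2644362 to 5405525 reads in untreated exosomes. The known miR-1246 row, which had the highest mean CPM of the listed rows through H2O2 replicate 3, took 3.32%, 0.261% and 27.4% of the total in H2O2 replicates 1 to 3, against 0.130%, 0.368% and 1.15% in untreated replicates 1 to 3. CPM values are shares of a total, so they do not tell more of a miRNA per vesicle from less of other RNA. They also do not show the number of vesicles. After subtraction of the miR-1246 reads from each total, miR-19b-3p was at 1578, 1059 and 1911 CPM in H2O2 replicates 1 to 3 and at 1041, 751 and 284 CPM in untreated replicates 1 to 3. H2O2 replicate 3 then had the highest miR-19b-3p level of the 6 libraries. On the same scale miR-20a-3p was at 11.4, 13.1 and 14.3 CPM in H2O2 and at 6.33, 7.21 and 3.56 CPM in untreated exosomes, and miR-17-3p was at 18.8, 42.6 and 18.3 CPM in H2O2 and at 12.7, 10.6 and 5.24 CPM in untreated exosomes. miR-19b-1-5p was at 4.70, 7.78 and 3.67 CPM in H2O2 and at 2.53, 1.52 and 2.25 CPM in untreated exosomes. The gap between the groups of miR-17-3p was wider on this scale, and its log2 fold change of 1.49 ± 0.58 passed (edgeR adjusted p = 0.0372). With median-of-ratios scaling over the listed rows the log2 fold changes were smaller, miR-17-3p being at 1.02, miR-19b-1-5p at 0.88, miR-20a-3p at 0.73 and miR-19b-3p at 0.61, and none of the 4 passed.

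**Figure D4:**
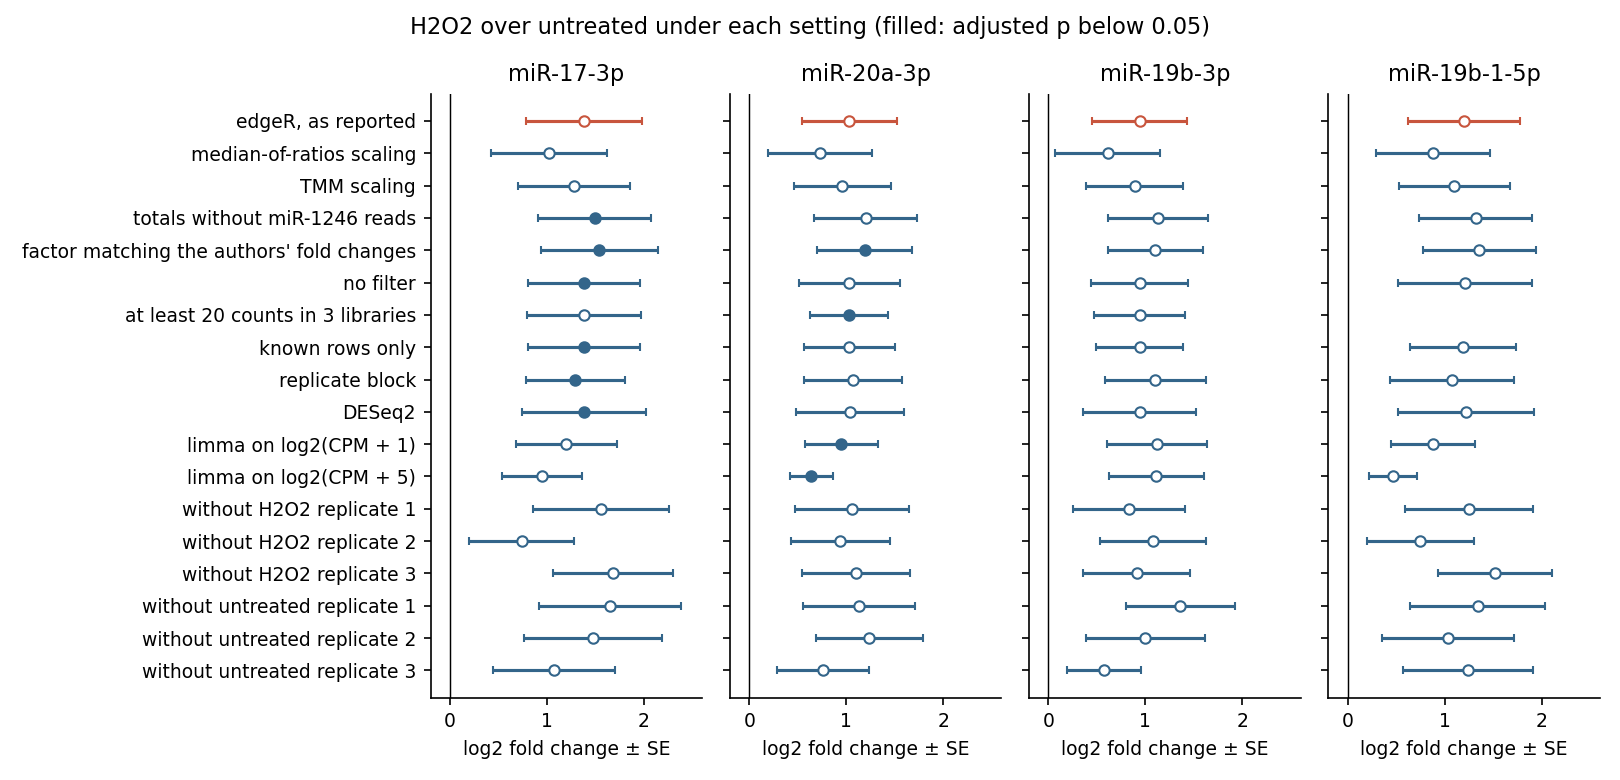
Log2 fold change of each cluster member (H2O2 over untreated) with its SE under each setting, with filled points where the adjusted p was below 0.05. All values are positive, the direction in which the members were listed. miR-17-3p is lowest without H2O2 replicate 2 (0.74), and miR-19b-3p without untreated replicate 3 (0.57).

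Of the markers of keratinocytes, 3 of 10 hairpin names were listed, with summed levels of 644 to 709 CPM in H2O2 and 295 to 493 CPM in untreated exosomes, and the others, such as miR-203a and the miR-200 family, are not analysed here. Of the markers of blood cells and serum, 5 of 8 hairpin names were listed, all as lower, with summed levels of 76.7 to 447 CPM in H2O2 and 510 to 1294 CPM in untreated exosomes. Of the 4 listed keratinocyte rows, miR-31-3p alone was listed as higher and carried the sum, with 551 to 592 CPM in H2O2 and 36.7 to 191 CPM in untreated exosomes. The other 3 (miR-205-3p, miR-125b-1-3p and miR-125b-2-3p) were listed as lower, and their sum was 93.5 to 117 CPM in H2O2 and 247 to 372 CPM in untreated exosomes. miR-16-2-3p held most of the blood and serum sum, with 61.5 to 422 CPM in H2O2 and 444 to 1120 CPM in untreated exosomes. The other listed rows of that list were far lower. In H2O2 exosomes miR-122-5p was at 4.55 to 9.8, miR-486-5p at 5.32 to 8.16, miR-451a at 1.62 to 5.31 and miR-142-5p at 0.325 to 0.968 CPM. In untreated exosomes miR-122-5p was at 19.6 to 118, miR-486-5p at 22.8 to 40.1, miR-451a at 7.9 to 12.1 and miR-142-5p at 1.29 to 4.54 CPM. Both lists' sums moved with the groups, and their part in the members' differences was not tested.

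Likeness to the members' mean profile (the mean of their centred log2(CPM + 1) values) was described by Pearson's r over the 6 libraries, for the other 123 known rows tested. The highest values were 0.97 for miR-151b, 0.96 for miR-590-3p, 0.95 for let-7i-3p, 0.94 for miR-9-5p and 0.93 for miR-1248. All 5 were listed as higher, and the libraries fall into 2 groups, so a high r is partly fixed by the listing. Within a library, all rows are also divided by the same total. miR-590-3p was at 101 ± 23.3 CPM in H2O2 and 46.9 ± 22.9 CPM in untreated exosomes (SD, n = 3 each), and miR-9-5p, a miRNA known from the nervous system, was at 4462 ± 905 CPM in H2O2 and 2013 ± 255 CPM in untreated exosomes. Each member set against the mean of the other members gave an r of 0.94 for miR-20a-3p, 0.91 for miR-17-3p, 0.71 for miR-19b-1-5p and 0.70 for miR-19b-3p. All 4 members were listed as higher, so these values are partly fixed by the listing as well.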

How the data were processed

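Exosomal small RNA of 3 H2O2-treated and 3 untreated HaCaT cultures was sequenced. The submitters' processing notes name bcl2fastq, FastQC, cutadapt and Bowtie 1.1.1 without their roles. No source used here gives the genome build, the miRNA catalogue or the counting rule. The tables the authors deposited hold, per the file headers, raw counts and a normalized value per library, which is the count per 1000000 reads (CPM) of a total recovered as count over CPM. A log2 value and its linear ratio for the group difference, with an unadjusted p-value, were also deposited by the authors, and only rows selected for a difference are in the 4 tables used here.

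Counts were tested with edgeR 4.0.16 (R 4.3.3; estimateDisp, glmQLFit, glmQLFTest, two-sided) on the 186 known and predicted rows reaching 5 counts in 3 or more libraries, with the recovered totals, no composition factor, Benjamini-Hochberg adjustment over all 186 and a threshold of 0.05. Selected rows make the adjusted p-values too small by an unknown amount. SE is the fold change over the root of F. The code was tested on simulated data. Ratios were tested with exact permutation over libraries. Poisson intervals cover counting error only. Alternatives used DESeq2 1.42.0, limma 3.58.1, other scalings and filters, a replicate block and leaving out each library. In a scaling called the fitted factor, log2 fold changes were offset by 0.16 to match the authors' fold changes. It is not the authors' own scaling, so a pass under it is not independent support.

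The members, lists and tests were chosen with earlier results of these data known. Named were the 4 members, any other listed row of the 15 cluster and paralog hairpins or sharing a member's seed (0 of each), the 5 rows most like the members, and miR-1246. Sequences came from RefSeq (GRCh38.p14), where all 4 members matched by name. The labels call the replicates biological.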

Additional observations from a re-analysis of the deposited data

How the results depend on the processing

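All 67 values of the members under the alternatives were positive, and 10 passed the threshold. Without 1 library, the log2 fold changes ranged from 0.74 to 1.68 for miR-17-3p, from 0.76 to 1.24 for miR-20a-3p, from 0.57 to 1.36 for miR-19b-3p and from 0.75 to 1.52 for miR-19b-1-5p, and none of the 4 passed (0). miR-17-3p passed at 1.49 with miR-1246 reads subtracted from the totals and at 1.54 with the fitted factor. It passed at 1.38 with no filter, with known rows only or with DESeq2, and at 1.29 with the replicate block. miR-20a-3p passed at 1.19 with the fitted factor and at 1.03 with at least 20 counts. With limma it passed at 0.95 and 0.64 (pseudocounts of 1 and 5). Members past the threshold numbered 0 in the edgeR fit, 2 with the fitted factor and 1 in each other setting just named. Over the alternatives, the adjusted p ranged from 0.0372 to 0.214 for miR-17-3p and from 0.0421 to 0.208 for miR-20a-3p. It ranged from 0.0562 to 0.283 for miR-19b-3p and from 0.0517 to 0.22 for miR-19b-1-5p, and the cause was not tested. These ranges leave out an adjustment as if 2000 miRNAs had been tested, under which 0 of the 4 members passed. miR-19b-1-5p was left out by the filter of 20 counts, and with limma at a pseudocount of 5 it was 0.47.

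Known rows called higher, 39 in the edgeR fit, numbered 45 with miR-1246 reads subtracted, with the fitted factor or with no filter. Where else a member passed, they numbered 43 with known rows only, 40 with the replicate block or DESeq2 and 35 with at least 20 counts. With limma they numbered 43 and 39 (pseudocounts of 1 and 5). They became 24 with median-of-ratios scaling, 2 with p-values adjusted for 2000 assumed tests, and 8 to 39 when a library was left out, with 8 without H2O2 replicate 1, 19 without H2O2 replicate 2, 16 without untreated replicate 1 and 18 without untreated replicate 2. Relative to the totals used, the median of all rows moved by -0.29 with median-of-ratios scaling and by 0.15 with miR-1246 reads subtracted. Without 1 library the log2 ratio differences ranged from -0.65 to 0.50 for miR-19b-3p over miR-19b-1-5p, from -0.50 to 0.17 for miR-20a-3p over miR-17-3p and from -0.41 to 0.42 for miR-19b-3p over the minor arms. The replicate numbers did not pair the libraries throughout. The correlation of deviations from the group means over the tested rows was 0.20, 0.08 and 0.23 for numbers 1, 2 and 3. H2O2 replicate 2 correlated more with untreated replicate 1 (0.12). The other H2O2 replicates and every untreated replicate correlated most with the library of the same number. Depth limits miR-19b-1-5p most, with 4 reads in its lowest library.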
